A study of Mus musculus with 282 samples.

Results

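Mutually exclusive exons are pairs of neighbouring exons of which a transcript carries one or the other. In the hypothalamic transcriptome of 282 male mice, 25952 alternative splicing events of 7 types were found, and 1.22% of them were mutually exclusive. These were 69 events with exons of equal length and 248 with exons of unequal length, at 316 distinct exon pairs in 263 genes, of 12524 genes with a deposited transcript. An event was counted when, within a gene of the deposited assembly, 2 transcripts shared both flanking splice sites and each had its own, non-overlapping internal exon between them. The first exon is the one met first in the direction of transcription, and the form of an event is the set of transcripts that carry that exon between those flanks. PSI (percent spliced in, given here as a share from 0 to 1) is the level of the form with the first exon, summed over its transcripts, as a share of the level of both forms. Levels are in FPKM, fragments per kilobase of transcript scaled to the size of the library.

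In the textbook view, the exons of such a pair arose by duplication, code for the same stretch of the protein and keep the reading frame, so that a cell chooses between variants of one domain. The choice is made by RNA-binding proteins and often by the tissue or the stage of development. In the brain the best known pairs lie in ion channels, glutamate receptors and the vesicle release machinery, where they tune gating, desensitisation and fusion.

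The mice came from 99 strains of the Hybrid Mouse Diversity Panel, with 3 mice in 85 strains, 2 mice in 12 and 1 mouse in 2. The strains comprised 25 classical inbred strains (71 mice) and recombinant inbred strains of 4 sets: 18 AXB/BXA strains (47 mice, from A/J and C57BL/6J), 43 BXD strains (126 mice, from C57BL/6J and DBA/2J), 6 BXH strains (16 mice, from C57BL/6J and C3H/HeJ) and 7 CXB strains (21 mice, from BALB/c and C57BL/6). The libraries of OB-273 and OB-274, both of CXB-6/ByJ, held the same values up to a constant factor of 1.0049: all 111345 values above 0 lay within 0.1% of it and the zeros were shared, whereas no other pair compared had more than 0.405% of its values so close. They may be 1 library entered under 2 mice. The numbers below count both, as the labels do, and the strain results were repeated with their mean as 1 sample, which moved no mean PSI over mice by more than 0.00266 and no SD by more than 0.000853. One further mouse, OB-627, had conflicting strain names in its labels and was left out of every strain comparison. All mice were male and on a high fat diet, without a chow group, and the labels give no age and no cell sorting. RNA was extracted with a Qiagen miRNeasy kit and sequenced after TruSeq library preparation. A strain mean therefore reflects whole hypothalamus, where fewer cells of a type and less RNA per cell cannot be told apart.

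The tissue label fitted its markers: 9 of 10 hypothalamic markers, Avp, Oxt, Hcrt, Pmch and Agrp among them, were in the table and above 0 in every mouse, and their summed level ran from 861 to 9303 FPKM with a median of 1378. Pomc, which is part of that sum, ran from 1.45 to 6851 FPKM with a median of 24.2, and its part in the highest sums was not separated. Anterior pituitary markers, from the gland below the hypothalamus, had a median sum of 25.8 FPKM but reached 16462 FPKM in the highest library. Their part in the PSI values was tested only as a covariate set with the other tissue markers, under which 96 events passed the strain test. The share of all events that passed in that fit is not given. The summed FPKM of all genes ran from 322047 to 463433, except for mouse OB-547 of BXD-12/TyJ at 792801.

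A set of 18 libraries stood apart from all others. They were all mice of BXD62, BXD70, BXD75, BXD85, BXD-9/TyJ and BXHA1, and OB-997, 1 of the 3 mice of BXD87. On the first principal component of 33036 transcripts of loci without mutually exclusive exons (12.7% of variance), these libraries lay between 0.217 and 0.228. The others lay at or below 0.0328, with OB-547 the highest. OB-547 was kept among the others, although it had 17703 transcripts of loci without mutually exclusive exons at 0. That number ran from 12490 to 14909 in the 18 libraries and was at most 9674 in the rest of the others. In these 18 libraries a median of 53.0% of the unannotated isoforms of the assembly had an FPKM of 0, against 9.92% in the others, while the medians for known transcripts were 9.01% and 8.28%. Of the 21234 unannotated isoforms, 6.55% were at 0 in each of the 18 libraries and above 0 in at least 95% of the others, and of the 29305 known transcripts 0 were. The summed neuronal markers had medians of 1774 and 1814 FPKM in the 18 and the other libraries, and those of oligodendrocytes 2311 and 2287. Since whole strains fell on one side, strain and this difference between libraries cannot be told apart in 6 strains, and each strain result is given with and without these libraries. Ranges, medians and gaps of strain means given without them leave out only these 6 strains. The mean of BXD87 is kept there and includes OB-997, whereas the tests without the 18 libraries leave OB-997 out. None of the 18 was from a parental strain.

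Exon pairs of equal length are shown for 6 genes to let the pairs be read side by side. They are the pairs on which the results below turn, all coding in the GENCODE M21 annotation of GRCm38 (mm10). The sequences were read from the M21 transcripts, run 5′ to 3′ in the direction of the gene, and have in capitals the bases at which the 2 exons of a pair differ when laid on each other without gaps. Gria1 codes for an AMPA receptor subunit, Snap25 for a SNARE protein of vesicle fusion, Dnm1 for the GTPase that pinches off endocytic vesicles, Pkm for the last enzyme of glycolysis, Mapk9 for a stress-activated JNK kinase and Tpm3 for an actin-binding tropomyosin.
Gria1 first exon, chr11:57309769-57309883, plus strand: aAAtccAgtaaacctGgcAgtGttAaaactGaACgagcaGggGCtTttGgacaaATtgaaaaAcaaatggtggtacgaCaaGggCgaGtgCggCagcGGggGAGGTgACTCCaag
Gria1 second exon, chr11:57310608-57310722, plus strand: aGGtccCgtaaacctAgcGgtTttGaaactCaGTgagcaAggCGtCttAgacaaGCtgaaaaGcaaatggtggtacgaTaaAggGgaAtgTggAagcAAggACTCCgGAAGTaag
Snap25 first exon, chr2:136769743-136769860, plus strand: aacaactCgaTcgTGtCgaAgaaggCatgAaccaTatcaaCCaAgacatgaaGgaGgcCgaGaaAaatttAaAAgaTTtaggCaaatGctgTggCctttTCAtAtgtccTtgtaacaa
Snap25 second exon, chr2:136770057-136770174, plus strand: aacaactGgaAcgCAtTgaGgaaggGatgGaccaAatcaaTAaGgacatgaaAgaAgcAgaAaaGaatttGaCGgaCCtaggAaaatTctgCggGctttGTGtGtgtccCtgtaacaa
Dnm1 first exon, chr2:32334682-32334820, minus strand: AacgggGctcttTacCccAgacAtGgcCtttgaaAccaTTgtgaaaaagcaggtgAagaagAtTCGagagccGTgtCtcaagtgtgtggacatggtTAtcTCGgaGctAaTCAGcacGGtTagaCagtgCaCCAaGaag
Dnm1 second exon, chr2:32333066-32333204, minus strand: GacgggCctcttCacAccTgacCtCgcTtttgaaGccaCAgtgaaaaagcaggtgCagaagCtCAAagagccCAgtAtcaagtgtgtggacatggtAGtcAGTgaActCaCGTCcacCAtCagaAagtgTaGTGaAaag
Pkm first exon, chr9:59675029-59675195, plus strand: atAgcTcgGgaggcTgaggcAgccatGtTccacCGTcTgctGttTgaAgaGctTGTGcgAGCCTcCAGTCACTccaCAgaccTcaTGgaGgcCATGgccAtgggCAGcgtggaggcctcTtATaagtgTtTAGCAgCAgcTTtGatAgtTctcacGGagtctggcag
Pkm second exon, chr9:59675568-59675734, plus strand: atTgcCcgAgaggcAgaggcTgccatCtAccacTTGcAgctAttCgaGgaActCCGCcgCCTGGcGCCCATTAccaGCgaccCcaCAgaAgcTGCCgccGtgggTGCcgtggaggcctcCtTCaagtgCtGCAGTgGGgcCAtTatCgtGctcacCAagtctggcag
Mapk9 first exon, chr11:49873836-49873907, plus strand: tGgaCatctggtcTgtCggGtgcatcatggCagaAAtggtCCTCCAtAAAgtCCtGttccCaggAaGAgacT
Mapk9 second exon, chr11:49874264-49874335, plus strand: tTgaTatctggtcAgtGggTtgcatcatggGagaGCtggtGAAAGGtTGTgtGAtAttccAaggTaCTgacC
Tpm3 first exon, chr3:90088401-90088476, plus strand: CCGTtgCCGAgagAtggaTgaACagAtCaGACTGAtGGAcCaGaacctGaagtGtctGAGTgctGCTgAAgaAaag
Tpm3 second exon, chr3:90089048-90089123, plus strand: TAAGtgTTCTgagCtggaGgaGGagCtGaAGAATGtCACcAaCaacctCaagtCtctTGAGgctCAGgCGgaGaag
The Snap25 exons of 118 nt differed at 31 positions and were 73.7% identical. Dnm1 followed at 71.9%, Gria1 at 68.7%, Mapk9 at 65.3% and Pkm at 61.7%. The Tpm3 exons, 76 nt long, shared 51.3% of positions.

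Equal length was a feature of 69 events (21.8%), in 63 genes. Of the 248 pairs of unequal length, 156 differed by a multiple of 3. Lengths of the 590 distinct exons ran from 3 to 2618 nt around a median of 91 nt, with quartiles at 60 and 131.75 nt, and those of 4895 skipped exons had a median of 95 nt and quartiles at 60 and 139.5 nt. A multiple of 3 was the length of 52.5% of mutually exclusive exons and of 56.2% of skipped exons. Most pairs were thus matched in frame to each other, while the share of single exons divisible by 3 was near that of skipped exons.

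**Figure D1:**
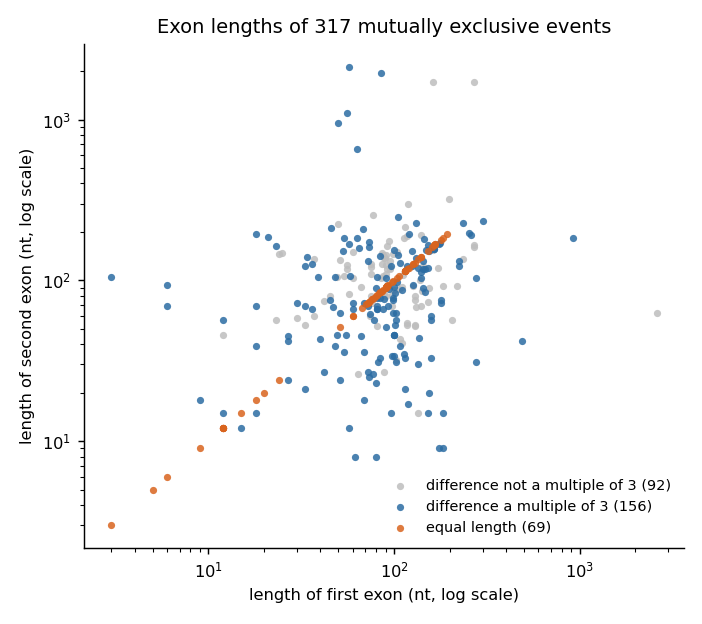
Length of the second exon against the first in all mutually exclusive events, both axes in nt on a log scale. Each point is 1 event; 69 pairs of equal length (orange) lie on the diagonal, 156 differ by a multiple of 3 (blue) and 92 by another number (grey).

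The intron between the exons of a pair had a median length of 1529 nt, and in 29 events it was under 100 nt. It had a median of 881 nt in pairs of equal length and 1718.5 nt in the others. Both exons were wholly coding in M21 in 218 events, including 60 of the 69 equal-length pairs. In 190 events no deposited transcript contained both exons, again including 60 of the 69 equal-length pairs, while in 127 events some transcript joined them, so that these events were mutually exclusive only between the given flanks. Known transcripts supported both forms in 205 events and neither in 34. Among 63 equal-length pairs whose exons were both found in M21, identity had a median of 58.8% (quartiles 49.4% and 68.6%), with 26 pairs between 60% and less than 100%.

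Identical letters were found in 3 events. A pair of 91-nt exons of Tusc3, a gene of the oligosaccharyltransferase complex, at chr8:39154689-39154779 and chr8:39157260-39157350, entered as 2 events with different transcripts, and a pair of 165-nt exons of Hexdc, a hexosaminidase gene, made the third. Reads inside those exons, or across their junctions with the shared flanks, cannot be told apart. The PSI of these 3 events therefore rests on other parts of the transcripts. The pair of 2010315B03Rik was 91.3% identical. Next came the pairs of sodium channels, with Scn8a at 79.3%, Scn2a1 at 78.3% and Scn3a at 77.2%, and of the actin crosslinker Actn4 (event 2) at 75.6%. The shortest equal pairs were microexons, and for one of them, the 6-nt pair of Thsd7a, PSI was exactly 0.5 in all 282 mice, so it could not be tested. In the 5-nt pair of Sept7, a septin, PSI was exactly 0.5 in 263 mice. The transcripts of these pairs had equal deposited FPKM in those mice.

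Most events used both exons. The mean PSI over mice lay between 0.4 and 0.6 in 59 events, and it was below 0.1 in 32 and above 0.9 in 25. The median summed FPKM of an event was 8.41, and it was 17.1 for pairs of equal length and 6.87 for the others. A total of 9 events reached 100 FPKM. The level per length was highest for Mbp, the myelin basic protein gene, at 1096 FPKM, followed by Snap25 at 495 FPKM and Pkm at 298.05 FPKM.

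Of 48 genes known from textbooks or the study for mutually exclusive exons, 31 had 45 events here, 29 of them of equal length, and the other 17 genes had none under the rule used. The strain test (limma moderated F test on PSI, Benjamini-Hochberg adjusted over all 25922 events tested) was passed by 15 of the 45 events, beside 30.0% of all events of the 7 types, and by 11 without the 18 libraries, beside 15.3%. Values are means ± SD over 282 mice, and an SD includes strain differences and measurement error.

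Among glutamate receptors, 3 AMPA subunit genes had the pair, and both exons were in use in each. PSI was 0.433 ± 0.0641 in Gria1, 0.439 ± 0.0824 in Gria2 and 0.636 ± 0.107 in Gria4, of which only Gria1 passed the strain test (adjusted p = 6.33e-05, and 0.00614 without the 18 libraries). Strain means of Gria1 ran from 0.340 in AXB-13/PgnJ through a median of 0.429 to 0.531 in the highest of the 93 remaining strains. Whether Gria1 differed from Gria2 and Gria4 in its strain variation was not tested.

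Voltage-gated sodium channels carry the upstroke of the action potential. PSI was 0.0546 ± 0.0405 in Scn3a and 0.0828 ± 0.0455 in Scn8a, so the second exon prevailed in both, and it was 0.407 ± 0.179 in Scn2a1 (SD over mice). Scn2a1 and Scn8a passed the strain test and neither passed without the 18 libraries (adjusted p = 0.187 and 0.614). For both genes, 1 form consisted of unannotated transcripts.

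Calcium and potassium channels had 8 events, 3 of which passed with and without the 18 libraries, beside the same 30.0% and 15.3% of all events. These were Cacna1a, the P/Q-type calcium channel, with a PSI of 0.652 ± 0.0552, the first event of Cacna1c, an L-type channel, with 0.292 ± 0.132, and the third event of Kcnma1, the BK potassium channel, with 0.785 ± 0.0774. The remaining Cacna1c events had mean PSI of 0.765, 0.139 and 0.759 and did not pass.

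In vesicle release and uptake, Snap25 used its first exon, known as exon 5a, at a PSI of 0.138 ± 0.0279, with 69.8 FPKM against 436 FPKM for the second exon, 5b. Exon 5b is the form of the mature brain. Strain means of Snap25 ran from 0.0883 in CXB-3/ByJ to 0.194 in CE/J with a median of 0.138 without the 18 libraries (adjusted p = 0.00216 there and 0.000466 with them). Dnm1, event 2, was split almost evenly, with mean levels of 125 and 128 FPKM for the first and second form and a PSI of 0.495 ± 0.0355. Its strain means, from 0.437 in SM/J to 0.587 in BXHB2, differed in the test (adjusted p = 5.96e-07, and 4.37e-06 without the 18 libraries). The related dynamins Dnm2 and Dnm3 had PSI of 0.310 ± 0.0879 and 0.169 ± 0.0579, and Dnm3 passed both ways.

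In the actin cytoskeleton, the tropomyosin Tpm1 used the first exon of both of its pairs rarely (0.0554 and 0.0723), whereas the actinins Actn1 and Actn4 (event 2) were near balance at 0.514 ± 0.0791 and 0.524 ± 0.0820. Event 1 of Tpm1 passed the strain test with and without the 18 libraries, but lost the call in 9 of 25 alternative settings. Tpm3 was the only textbook event with a strain share above 0.5 both with and without the 18 libraries, and is described below. Among kinases, Mapk9 had a PSI of 0.642 ± 0.0697 and passed both ways (adjusted p = 2.45e-06 and 6.93e-05), with strain means from 0.520 to 0.774 in LG/J without the 18 libraries. The related JNK gene Mapk8 had 0.839 ± 0.0779, the Src-family kinase Fyn 0.794 ± 0.0875 and the p38 gene Mapk14 (event 1) 0.352 ± 0.222, and none of these passed.

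In metabolism, Pkm used its first exon, exon 9 of the M1 form, at 0.915 ± 0.0169. Strain means of Pkm ran from 0.880 to 0.941, and the test was passed with the 18 libraries (adjusted p = 0.0247) and not without them (adjusted p = 0.206). A second Pkm event, shifted by 1 nt against the first and made of unannotated transcripts, is not independent of it. The mitochondrial phosphate carrier Slc25a3 used the first exon of event 2, exon 3A of the muscle form, at 0.0129 ± 0.0497. P4ha1, a prolyl hydroxylase of collagen synthesis, had a PSI of 0.196 ± 0.0814 and passed only with the 18 libraries, in which its median was 0 against 0.210 in the others. Khk, the fructose kinase gene, had 0.661 ± 0.179 and did not pass. In transcription and splicing, H2afy, which codes for the histone macroH2A1, had a PSI of 0.887 ± 0.0488. It passed both ways, but the call was lost in 12 of 25 alternative settings, each omission of 1 replicate number among them (adjusted p up to 0.655). Of the other textbook events that passed both ways, Tpm1 event 1 lost the call in 9 of 25 settings, Cacna1a in 8 of 25 and Cacna1c event 1 in 7 of 23. Snap25 lost it in 6 of 25, Dnm3 and Kcnma1 event 3 each in 6 of 23, and Gria1 in 5 of 25. Dnm1 event 2 lost it in 3 of 25, Mapk9 in 2 of 25 and Tpm3 in none of 25. Mef2a (0.754), Tcf3 (0.474) and the splicing factor U2af1 (0.276) did not pass. The 3 events of the imprinted gene Nnat did not pass with or without the 18 libraries. In alternative settings event 1 gained the call in 3 of 24, event 3 in 1 of 24 and event 2 in 0 of 23. The study gives an Nnat event of this type as an example mapped to a genetic variant. Whether it is one of these 3 was not tested.

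**Figure D2:**
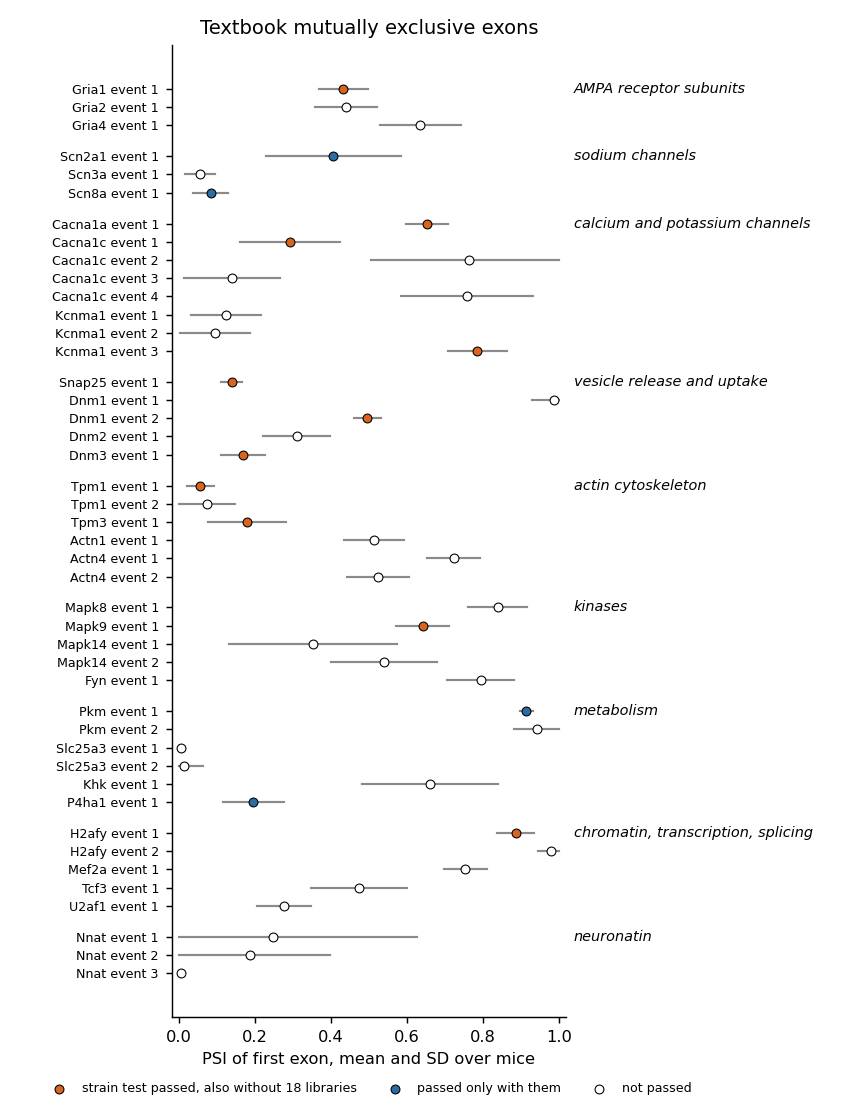
Mean PSI of the first exon (points) with SD over mice (lines, drawn within 0 to 1) for events of the textbook genes, grouped by role. Orange points passed the strain test with and without the 18 libraries (11 events), blue points only with them (4 events, Scn2a1, Scn8a, Pkm event 1 and P4ha1), and white points did not pass.

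Across the panel, 100 of 314 events tested passed the strain test (31.8%, in 95 genes), beside 30.0% of all events of the 7 types. Without the 18 libraries 59 passed (18.8%, in 57 genes), beside 15.3% of all events, so the share was near the background in either fit. Counting OB-273 and OB-274 as 1 sample, 97 passed, beside 29.2% of all events, and 56 without the 18 libraries, beside 14.6%. All of the 59 were among the 100, and of the 41 that were lost, 24 had a form made of unannotated transcripts only and 17 had known transcripts for both forms. Equal-length pairs passed in 30 of 68 tests and other pairs in 70 of 246, and without the 18 libraries in 19 and 40. The strain share of variance (intraclass correlation) had a median of 0.0880 for the mutually exclusive events and 0.0760 for all events, and of 0.0653 and 0.0528 without the 18 libraries. A share of at least 0.5 was reached by 12 events with them and by 5 without.

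**Figure D3:**
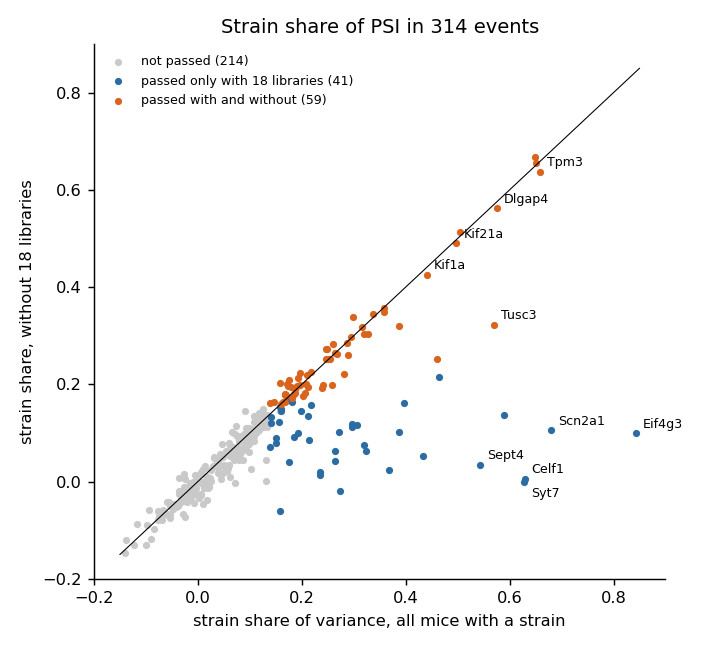
Strain share of variance in PSI for 314 events with all mice of known strain (x axis) and without the 18 libraries (y axis), with the line of equality. Orange points (59) passed the test in both fits, and Tusc3 among them lies below the line, at 0.569 and 0.322. Blue points (41) passed only with the 18 libraries and lie below the line, among them Eif4g3, Scn2a1, Celf1, Syt7 and Sept4.

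The 10 largest strain shares divided into events that rested on the 18 libraries and events that did not. Eif4g3, a translation initiation factor gene, had the largest share at 0.843 for event 2, and 0.0997 without the 18 libraries (adjusted p = 0.213). Its PSI fell within 0.629 to 1 in the other libraries, with a median of 0.868, and had a median of 0.0450 in the 18. Scn2a1 had PSI of 0.870 to 1 in the 18 libraries and of 0.00358 to 0.682 in the others (median 0.373). The value of 0.00358 was that of OB-547. The share of Scn2a1 fell from 0.679 to 0.105. Celf1, which codes for an RNA-binding splicing regulator, fell from 0.629 to 0.00602, Syt7, a calcium sensor of vesicle fusion, from 0.628 to -0.00115, and the septin Sept4 from 0.543 to 0.0349. Tusc3 (event 1), the pair with identical exons, was at 0 in all of the 18 libraries and at 0.107 or above in the others. Its share fell from 0.569 to 0.322 and still passed (adjusted p = 1.65e-05). Since no read across this pair can tell its exons apart, that result cannot be read as a difference in exon choice. In each of these events the 18 libraries were all or nearly all on one side, at the end given by the form with known transcripts or, for Syt7 and Tusc3, with unannotated transcripts in both forms.

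The 3 mice of BXD87 show the same within 1 strain. In Scn2a1 the PSI was 0.224 in OB-995, 0.367 in OB-996 and 0.961 in OB-997, the mouse whose library stood apart. In Eif4g3 event 2 it was 0.921, 0.802 and 0.0268, and in Sept4 0.270, 0.327 and 0.00908. OB-997 was far from both other mice of its strain in each. In all, 8 events had PSI ranges that did not overlap between the 18 libraries and the others, and all 8 had a form made of unannotated transcripts only. Medians differed by over 0.2 in 51 events, 32 of the 112 with such a form and 19 of the 205 with known transcripts for both forms. Neither count is given for all events of the 7 types, so they cannot be read as particular to mutually exclusive exons. The part of the zero FPKM of unannotated isoforms in these differences was not tested.

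**Figure D4:**
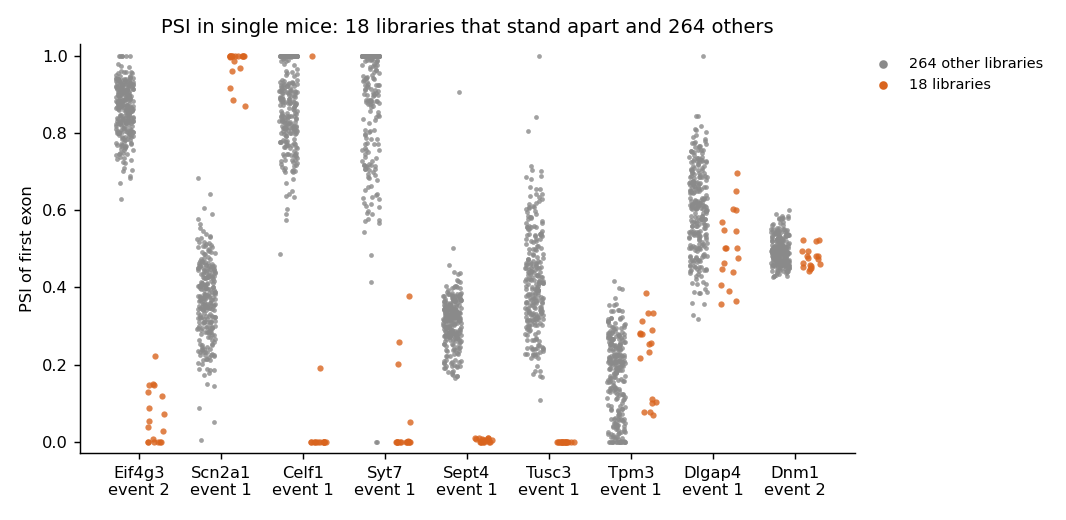
PSI of the first exon in single mice for 9 events (columns), with the other libraries in grey and the 18 libraries that stand apart in orange. In Eif4g3, Scn2a1, Sept4 and Tusc3 the colours do not overlap, in Celf1 and Syt7 nearly so, and in Tpm3, Dlgap4 and Dnm1 they share their range.

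Strain differences that remained were led by Tmem234, Pisd-ps2, Tpm3, Dlgap4 and Thoc7. Tpm3 had a strain share of 0.658 with and 0.638 without the 18 libraries (adjusted p = 7.31e-26 and 7.12e-22), at a median of 20.9 FPKM. Its PSI ran from 0 to 0.416 in single mice with a median of 0.198. In the BXD strains left after those whose mice all stood apart, strain means ran from 0.00418 to 0.299. BXD87 was among them, with OB-997 included. The widest gap lay between 0.0818 and 0.169, with 17 strains below it and 21 above. Classical inbred strains also had a gap, from 0.0838 to 0.139, with 9 strains below and 16 above. In AXB/BXA strains the means ran from 0.135 to 0.298 and in BXH strains, without BXHA1, from 0.196 to 0.282.

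The parents of the BXD strains lay on either side of that gap. The C57BL/6J mice had PSI of 0.279, 0.203 and 0.187 and the DBA/2J mice 0.158, 0.000365 and 0.0377, so the groups did not overlap. The level of the first form was 5.16 FPKM in C57BL/6J and 0.432 FPKM in DBA/2J, and that of the second form was 17.6 and 6.88 FPKM. The contrast of the parents missed the threshold (difference -0.157, SE 0.0495, limma adjusted p = 0.118). The A/J mean of 0.170 was close to C57BL/6J, while BALB/cJ mice had 0.0476, 0.0595 and 0.0957, and the contrast of BALB/cJ with C57BL/6J missed the threshold too (adjusted p = 0.130). Tpm3 has copies elsewhere in the mouse genome, such as Tpm3-rs7, and reads shared with them make its level uncertain.

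Dlgap4, which codes for a scaffold protein of the postsynaptic density, had pair members of 80 and 89 nt and a strain share of 0.576 with and 0.562 without the 18 libraries (adjusted p = 5.17e-19 and 2.12e-16). Its strain means ran from 0.414 to 0.802 in BXD79 without those libraries, with a median of 0.608, and no neighbouring BXD strains were more than 0.0305 apart. C57BL/6J mice had 0.545, 0.606 and 0.535 and DBA/2J mice 0.610, 0.5998 and 0.766, which overlap. C3H/HeJ mice, at 0.774, 0.706 and 0.754, lay above all C57BL/6J mice, and the contrast missed the threshold (adjusted p = 0.166).

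Tmem234, a gene of a transmembrane protein, had the largest share without the 18 libraries, 0.668, and 0.649 with them (adjusted p = 4.18e-21 and 1.37e-21), but at a median of 1.59 FPKM. Many of its values were at the ends of the scale. The C57BL/6J mice had PSI of 0.123, 0 and 0, the DBA/2J mice 1, 1 and 1, and the A/J mice 0.841, 1 and 1. In the BXD strains left after those whose mice all stood apart, the widest gap in strain means ran from 0.411 to 0.567. There were 21 strains below it and 17 above, BXD87 with OB-997 among the 38. The gene's own FPKM did not pass the strain test (adjusted p = 0.283).

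Pisd-ps2 is a pseudogene with near-identical copies, so that its values are uncertain. Its share was 0.650 with and 0.655 without the 18 libraries. All 3 A/J mice were at 0, with the first form listed at 0 FPKM and the second at a mean of 1.17 FPKM, while the C57BL/6J mice had 0.654, 0.555 and 0.376. Thoc7 (event 2), of the THO mRNA export complex, had a share of 0.504 with and 0.513 without the 18 libraries at 1.32 FPKM.

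**Figure D5:**
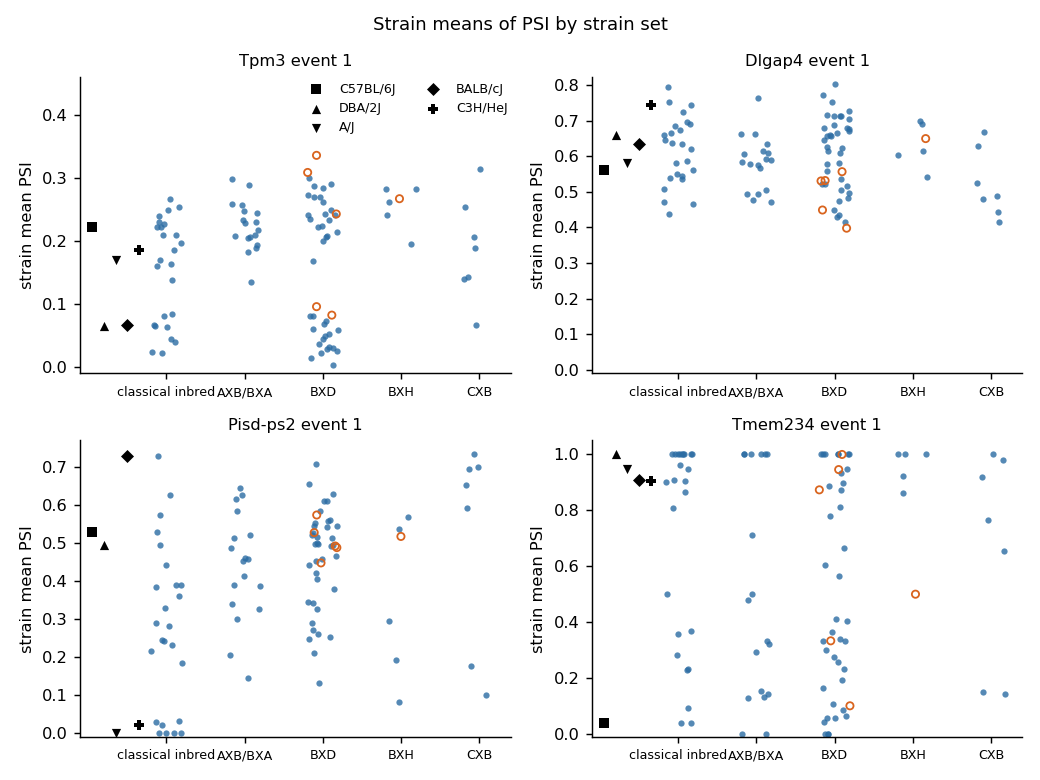
Strain mean PSI of 4 events by strain set; filled points are strains, open orange points strains whose libraries stand apart, and black symbols at the left the 5 parental strains. Tpm3 has a gap in the BXD and classical sets, Dlgap4 a continuous range, and Pisd-ps2 and Tmem234 reach an end of the scale.

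Below these, the kinesin genes Kif21a and Kif1a had shares of 0.497 and 0.441 (0.491 and 0.425 without the 18 libraries). Kif1a, an anterograde motor of synaptic vesicle precursors, chose between exons of 27 and 24 nt with a PSI of 0.0841 ± 0.0397. Its strain means ran from 0.00858 in BXH-9/TyJ to 0.160 without the 18 libraries. Kif21a had a PSI of 0.754 ± 0.156. The calcium channel Cacna1e (microexons of 12 nt each, both forms unannotated), the syntaxin Stx3 and Dnm1 followed with shares of 0.348, 0.344 and 0.357 without the 18 libraries. Among highly expressed events, Mbp had a PSI of 0.953 ± 0.0204 and a share of 0.461, which was 0.252 without the 18 libraries (adjusted p = 0.0177), and Nsmf, with exons of 6 and 93 nt, a PSI of 0.809 ± 0.106 (adjusted p = 2.17e-05 without them). Other highly expressed pairs used mainly 1 exon. The first exon had a PSI of 0.991 ± 0.00724 in Qdpr, a gene of tetrahydrobiopterin recycling, 0.976 ± 0.0217 in Ndufv2, of respiratory complex I, and 0.113 ± 0.0747 in Rab6a, of Golgi transport. None of these 3 passed, though Rab6a gained the call in 6 of 25 alternative settings. Vps29, a retromer gene, had a PSI of 0.526 ± 0.301, with values from 0 to 1 in single mice. It passed the strain test (adjusted p = 0.0222, and 0.0478 without the 18 libraries, or 0.0554 there with OB-273 and OB-274 as 1 sample). The Vps29 call was lost in 10 of 24 alternative settings.

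The parental strains of the recombinant sets were each compared with C57BL/6J, 3 mice against 3, with the spread taken from all strains. The 4 contrasts share the C57BL/6J mice. For DBA/2J, 2 events passed in either direction, beside 0.914% of all events. These were Tmem234 (difference 0.959, SE 0.203, adjusted p = 0.00142) and Cacna1e (0.132, SE 0.0336, adjusted p = 0.0183), in which DBA/2J mice had 0.292, 0.291 and 0.443 and C57BL/6J mice 0.195, 0.243 and 0.192. Without DBA/2J replicate 3 the Cacna1e difference was 0.0817 (adjusted p = 0.489), and without C57BL/6J replicate 1 or 3 the adjusted p was 0.1083.

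For A/J, 2 events passed, beside 1.01% of all events: Tmem234 (difference 0.906, adjusted p = 0.00351) and Pisd-ps2 (-0.528, adjusted p = 0.000205). Both passed when any 1 of the 6 mice was left out, and Pisd-ps2 did not pass when only the 2 strains were fitted (adjusted p = 0.115). For C3H/HeJ, 3 passed, beside 0.767%: Tmem234 (0.863, adjusted p = 0.00800), Pisd-ps2 (-0.507, adjusted p = 0.000578) and an event of Apc, a regulator of Wnt signalling (0.473, adjusted p = 0.00955). The C3H/HeJ mice had PSI of 0, 0.962 and 0.620 in Apc, so 1 of the 3 did not differ from the C57BL/6J mice at 0.163, 0 and 1.53e-06, and without C3H/HeJ replicate 2 the Apc difference was 0.256 (adjusted p = 0.591). The Apc call was also lost without C3H/HeJ replicate 3 or C57BL/6J replicate 2 or 3 (adjusted p = 0.109, 0.0813 and 0.0686). The Tmem234 call was lost without C3H/HeJ replicate 1 or 3 or C57BL/6J replicate 2 (adjusted p = 0.0653, 0.0671 and 0.0510).

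For BALB/cJ, 3 events passed, beside 0.883%: Tmem234 (0.868, adjusted p = 0.00689), Slc25a3 event 1 (0.0341, SE 0.00902, adjusted p = 0.0287) and Mbp (-0.0476, SE 0.0132, adjusted p = 0.0473). Mbp had PSI of 0.919, 0.935 and 0.919 in BALB/cJ and 0.974, 0.978 and 0.963 in C57BL/6J, without overlap, and the second form had mean levels of 83.9 and 32.4 FPKM beside 1018 and 1109 FPKM for the first. The Mbp call was lost when any 1 of the 6 mice was left out, with adjusted p from 0.0610 to 0.221. Slc25a3 event 1 had 0.0479, 0.0278 and 0.0328 in BALB/cJ and at most 0.00541 in C57BL/6J, and held only without BALB/cJ replicate 2 (adjusted p = 0.0352) of the 6 omissions. In Tmem234, 1 BALB/cJ mouse had a PSI of 1 on a first form of 1.96e-05 FPKM with the second at 0, and the call was lost without that mouse (adjusted p = 0.0603) and likewise without BALB/cJ replicate 3 (adjusted p = 0.0545). With only the 2 strains of a contrast in the fit, of the 10 differences named here those of Tmem234 in DBA/2J and A/J passed (limma adjusted p = 0.00300 and 0.0171), and the other 8 did not, with adjusted p from 0.0593 for Tmem234 in BALB/cJ to 0.754 for Slc25a3.

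Gene level and exon choice were measured separately. Of the 263 genes, 210 (79.8%) differed between strains in gene FPKM, beside 75.4% of all genes, and 186 (70.7%) without the 18 libraries, beside 9992 of 14079 genes. The median strain share in log2(FPKM + 1) was 0.242 for these genes and 0.222 for all genes. Of the 95 genes with an event that passed, 19 did not pass at the level of the gene, and without the 18 libraries 15 of 57. These counts stand beside the 79.8% and 70.7% of all 263 genes that passed there. Whether they differ from those shares was not tested. Dnm1 was among the genes that did not pass, with a gene FPKM share of 0.0387 (limma adjusted p = 0.300) beside the exon share of 0.358. Tmem234 was another. Whether exon shares exceeded gene shares was not tested.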

How the data were processed

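Hypothalamic RNA of 282 mice was sequenced by the authors without strand information. Per the labels' processing notes and the methods of the study, reads were aligned to mm10 with STAR 2.3.1, strain assemblies from Cufflinks 2.2.0 were merged with GENCODE M2, and Cuffnorm 2.2.1 gave the deposited FPKM of genes and transcripts, filtered on low levels by the authors. The deposited FPKM values are estimates that share reads among overlapping isoforms, so a PSI depends on which isoforms the assembly holds. Read counts per transcript were not analysed here, and no counting interval is given.

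Events of 7 types were built from the deposited assembly with Python 3.11.15 and the packages pandas 2.3.3, numpy 2.4.6 and scipy 1.17.1. PSI was tested where defined in at least 200 mice. The strain F test and the contrasts used mean squares moderated by limma 3.58.1 (R 4.3.3), with Benjamini-Hochberg adjustment over all events and a threshold of 0.05; gene FPKM was tested as log2(FPKM + 1). The test was also run on simulated normal values without the bounds of PSI. The outcome of that run is not given, and no conclusion is drawn from it. Strains came from the labels, which name single mice and no batches, so p-values measure the spread between mice. The 18 libraries that stand apart were found with log2(FPKM + 0.1) of transcripts of loci without mutually exclusive exons. Exon annotation and sequences came from GENCODE M21.

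The events, the gene lists and the tests were chosen with earlier results of these data known. Genes were named by rules, of which the first took events in genes of the textbook list. Others took the 10 genes with the largest strain share among those that passed, and the 10 with the largest median FPKM. A further rule took the 5 with a mean PSI nearest 0.5 at 10 FPKM or more. The last took, for each parental contrast, the event past the threshold with the largest difference in mean PSI. Thoc7, Kif21a, Kif1a, Stx3, Cacna1e, Apc, Thsd7a, Hexdc, 2010315B03Rik, Pdlim7, Ttc3, Porcn and the BXD87 mice were singled out after their values were seen. Alternatives were other transcript sets, log ratios, rank tests, covariates, strain subsets and omission of mice; leaving out the 18 libraries, alone or together with another restriction, counting OB-273 and OB-274 as 1 sample by their mean, and leaving OB-547 out of the parental contrasts were chosen after seeing the data. Sequences of chromosome 18 were not printed, and 1 event of the textbook list and 1 pair of exon sequences are not reported here.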

Additional observations from a re-analysis of the deposited data

How the results depend on the processing

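The number of mutually exclusive events became 181 with transcripts of at least 1 FPKM on average, 205 with known transcripts only and 190 where no transcript held both exons. The 100 events that passed the strain test became 64 with transcripts of at least 1 FPKM, 54 with known transcripts (of 204 tested), 62 with the Kruskal-Wallis test, 31 in classical inbred strains and 54 in BXD strains alone. Of settings chosen after seeing the data, 59 passed without the 18 libraries, 40 with known transcripts and without these libraries, 12 in BXD strains without them, against 54 with them, and 56 without the 18 libraries with OB-273 and OB-274 counted as 1 sample. That count alone gave 97, losing Pdlim7, Ttc3 and Porcn at adjusted p of 0.0507 to 0.0524. Omitting 1 replicate number from all strains gave 39 to 58. The other settings gave 69 to 117, with 105 without OB-547. Of all events, 30.0% passed in the main fit and 15.3% without the 18 libraries. With OB-273 and OB-274 as 1 sample these shares were 29.2% and 14.6%. For the other settings the share of all events is not given, so whether these counts moved with all events cannot be told. In parental contrasts (limma), the 2 events of DBA/2J became 1 on the log2 ratio scale and 3 when only both strains were fitted, the 2 of A/J became 3 and 1, the 3 of C3H/HeJ became 2 and 2, and the 3 of BALB/cJ became 0 in both settings, where 25 (only both strains) and 30 (log2 ratio) of the events had an unadjusted p under 0.05. Omitting 1 mouse gave 1 to 3 events for DBA/2J, 2 to 2 for A/J, 0 to 3 for BALB/cJ (0 without replicate 1 or 3, with 31 and 33 events at an unadjusted p under 0.05) and 1 to 4 for C3H/HeJ. The 210 genes that differed in gene FPKM became 115 to 170 when 1 replicate number was omitted. For the 60 named events, 129 of 1429 pairs of event and alternative lost the call, 37 gained it and the others kept their side of the threshold, and 24 events kept their side throughout. No paired analysis was possible because replicate numbers were given in accession order. Levels near 1 FPKM and transcript estimates without counts limit PSI, the causes of the changed counts were not tested, and strain cannot be told apart from library in the 6 strains that stand apart.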
